A study of Homo sapiens with 10 samples.

Results

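The genes described here are 10 genes of selective autophagy, 5 cargo receptors (SQSTM1, NBR1, OPTN, TAX1BP1 and CALCOCO2) and 5 members of the ATG8 group (MAP1LC3A, MAP1LC3B, GABARAP, GABARAPL1 and GABARAPL2). They were taken by symbol from a gene count table of 60898 rows. Each symbol stood on 1 row, and all 10 passed the filter on low counts that kept 21063 genes. The RNA came from human neural progenitor cells (NPCs) grown from H1, an established embryonic stem cell line, and was read in 10 libraries, 2 for each of 5 groups. WT cells carried no STAMBP knockout. KO1 and KO2 are 2 STAMBP knockout lines, KO+STAMBP are knockout cells given STAMBP, and KO+CFLAR are knockout cells given CFLAR. STAMBP is a deubiquitinase that acts on endosomes, and CFLAR encodes c-FLIP, an inhibitor of caspase-8. No treatment or time separates the groups. The labels state neither which knockout line received a construct nor the promoter behind it, and they do not say whether paired libraries are separate cultures. The spread behind every p-value is thus that between libraries, and it may be technical only.

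Selective autophagy removes ubiquitin-tagged proteins, damaged organelles and bacteria by enclosing them in a double membrane that later fuses with the lysosome. A cargo receptor binds ubiquitin on the cargo with one end and, through a short LC3-interacting motif, an ATG8 protein on the growing membrane with the other. ATG8 proteins are small ubiquitin-like proteins that the ATG4 proteases trim behind a C-terminal glycine and that a ubiquitin-like conjugation system then joins to phosphatidylethanolamine. Receptor and ATG8 proteins are themselves degraded by autophagy, so an RNA level gives neither the protein level nor the rate of autophagy. In neural cells, loss of core autophagy genes is known to let ubiquitinated protein build up.

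STAMBP RNA, the check on the knockout label, was 45.3 ± 2.71 CPM (read counts scaled to a common library size with TMM factors; mean ± SD, n = 2) in WT and 18.6 ± 1.19 (n = 4) in the knockout. Both rescue groups were nearer to WT, at 42.9 CPM in KO+STAMBP and 41.5 CPM in the KO+CFLAR-labelled libraries. For the KO+CFLAR-labelled libraries, with no STAMBP added per their label, this was 1.15 ± 0.07 above the knockout on the log2 scale and -0.13 ± 0.08 from WT. STAMBP RNA thus did not set the rescue groups apart (-0.05 ± 0.08), and neither it nor CFLAR RNA bears out the KO+CFLAR label. STAMBP RNA does not bear out the KO+STAMBP label either, since the KO+CFLAR-labelled libraries reached a like level. The knockout kept 41.1% of the WT STAMBP level, so the STAMBP gene of these cells may still be transcribed. Whether its RNA level is tied to the cell type markers described below was not tested. CFLAR was at 32.3 CPM in WT, 254 CPM in the knockout and 30.4 CPM in the KO+CFLAR-labelled libraries, against 32.1 CPM in KO+STAMBP, so the added CFLAR is not seen in these counts. The knockout libraries also differed from WT in cell type markers. Summed over 8 epithelial genes, the level was 31.43 to 33.01 CPM in WT, 7849 to 8307 CPM in the knockout and 52.61 to 62.98 CPM in the 4 rescue libraries. Summed over 8 neuronal genes it was 2257 to 2261, 498.6 to 518.9 and 3799 to 3867 CPM in the same order, and over 8 neural progenitor genes 4632 to 4853, 3183 to 3203 and 2491 to 2557 CPM. Over 5 mesenchymal genes it was 66.34 to 69.58, 1022 to 1078 (1030 of it COL1A1 on average) and 78.42 to 86.34 CPM, and over 3 pluripotency genes 1.397 to 1.956, 20.37 to 24.11 and 0.8164 to 2.031 CPM. The last rise was that of LIN28A (0.517 CPM in WT against 21.9 CPM in the knockout), while POU5F1 was at 0.979 and 0.719 CPM and NANOG at 0.18 and 0.3 CPM. All 8 epithelial genes rose and all 8 neuronal genes fell in the knockout by the test described next, while 6 progenitor genes fell, PAX6 rose, and VIM was at 2160 CPM in WT against 2259 CPM in the knockout. Of the 5 mesenchymal genes, 2 were called higher and 2 lower, so their summed rise is not one of the list as a whole. Of the 8 progenitor genes, FABP7 (1124 CPM in WT against 0.45 CPM in the knockout) and SOX1 (147.5 and 0.48 CPM) fell most. Both were close to the floor of 0.136 to 0.198 CPM that 3 counts give, while PAX6 was at 181.5 and 208.4 CPM. No marker was at 0 in every library of a group. The epithelial, neuronal, mesenchymal and pluripotency sums set the knockout apart from all other libraries, while the progenitor sum was lowest in the rescue libraries. Every knockout difference below thus lies between libraries that also differ in these markers, whose part in the results was not tested. In bulk RNA, fewer cells of a type and less RNA per cell cannot be told apart.

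All 5 receptors were higher in the knockout than in WT, by 1.41-fold (CALCOCO2) to 14.1-fold (SQSTM1). Among the ATG8 genes, GABARAPL1 and MAP1LC3B rose, MAP1LC3A fell to 33.1% of its WT level, GABARAP fell slightly, a call lost in 6 of 22 alternatives, and GABARAPL2 stood at 101% of WT. Counting the 10 genes together, 7 were called higher and 2 lower at an adjusted p under 0.05. Across all 21063 tested genes 36.8% were called higher and 39.4% lower, so most genes measured in these libraries were called in this comparison. The median log2 change was 1.22 over the 5 receptors and 0.01 over the 5 ATG8 genes, beside -0.04 over all tested genes. The test was edgeR's quasi-likelihood test with Benjamini-Hochberg adjustment over all tested genes, and fold changes are given on the log2 scale ± SE.

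SQSTM1 (ENSG00000161011, chr5:179806398-179838078 on GRCh38, plus strand) encodes p62, a receptor that gathers ubiquitinated protein into condensates and also binds KEAP1. Its level was 98.64 and 103.47 CPM in the WT libraries, 1443.43 and 1420.75 CPM in KO1, and 1437.10 and 1410.08 CPM in KO2. The 4 knockout libraries lay close together and far above every other library. KO+STAMBP stood at 116.42 and 117.61 CPM, and the KO+CFLAR-labelled libraries at 102.56 and 102.10 CPM. The change between knockout and WT was 3.82 ± 0.03 (edgeR adjusted p = 1.08e-18). In absolute counts, 1695 and 2116 reads were assigned to SQSTM1 in WT and 21727 to 26214 in the knockout, so counting error is small beside the difference.

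TAX1BP1 (ENSG00000106052, chr7:27739331-27844564, plus strand), a receptor for aggregates and bacteria that recruits the initiation machinery, was second to SQSTM1 in level per kilobase among the receptors of the knockout. It was measured at 104.58 and 107.28 CPM in WT, at 244.60 to 252.38 CPM in the 4 knockout libraries and at 99.42 to 107.83 CPM in the 4 rescue libraries. The knockout libraries again shared no value with the others, and the rescue libraries overlapped WT. The change was 1.22 ± 0.04 (edgeR adjusted p = 2.48e-13). NBR1 (ENSG00000188554, chr17:43170481-43211689, plus strand), which works with p62 in cargo condensates, changed less. Its levels were 98.12 and 93.64 CPM in WT, 162.99 and 158.02 CPM in KO1, 159.87 and 161.33 CPM in KO2 and 91.98 to 97.76 CPM in the rescue libraries. The knockout stood 0.75 ± 0.04 above WT (edgeR adjusted p = 2.42e-10).

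OPTN (ENSG00000123240, chr10:13099449-13138308, plus strand) encodes optineurin, a receptor for damaged mitochondria and bacteria that the kinase TBK1 phosphorylates. In WT it was the lowest of the 10 genes per kilobase of main transcript, though not per kilobase of the union of annotated exons, where CALCOCO2 was. It was measured at 20.95 and 21.47 CPM in WT, 100.22 and 97.94 CPM in KO1, and 100.74 and 101.45 CPM in KO2, a 4.72-fold difference of 2.24 ± 0.05 (edgeR adjusted p = 9.59e-15). KO+STAMBP, at 34.20 and 33.79 CPM, and the KO+CFLAR-labelled libraries, at 32.70 and 32.61 CPM, lay between WT and the knockout and touched neither. CALCOCO2 (ENSG00000136436, chr17:48830988-48866522, plus strand) encodes NDP52, a receptor for bacteria and damaged mitochondria. Its levels were 27.64 and 29.88 CPM in WT, 40.36 and 40.34 CPM in KO1, 39.88 and 41.75 CPM in KO2, 23.42 and 25.07 CPM in KO+STAMBP, and 22.40 and 22.54 CPM in the KO+CFLAR-labelled libraries. The knockout was the highest group, by 0.49 ± 0.06 over WT (edgeR adjusted p = 3.3e-06), and both rescue groups lay below every WT library.

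**Figure D1:**
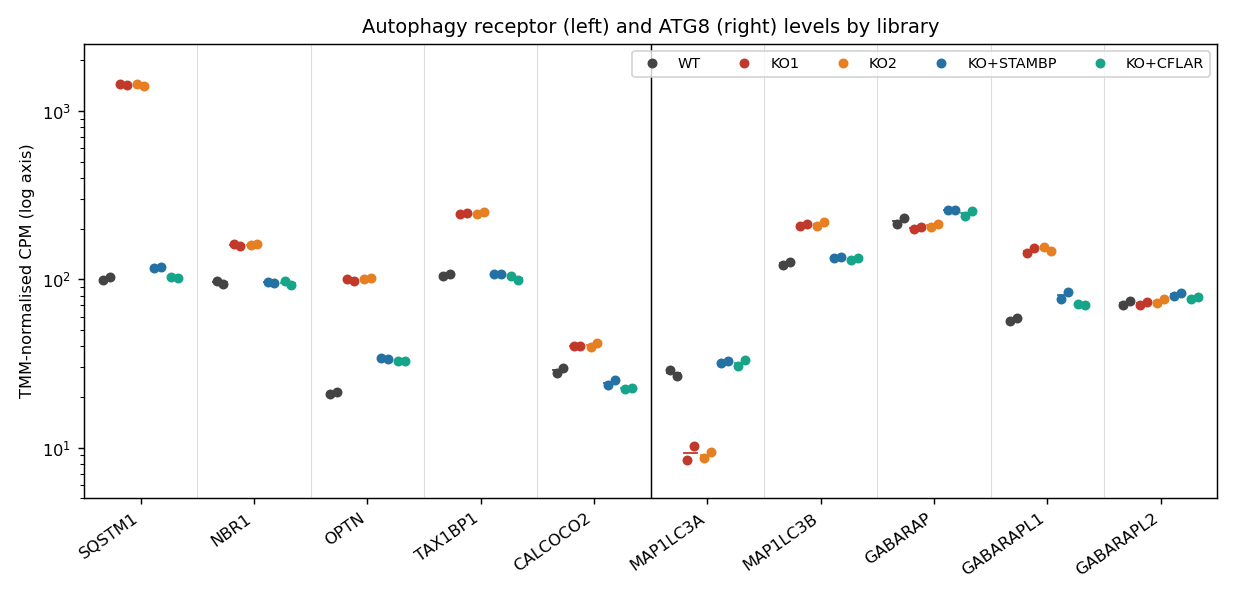
TMM-normalised CPM of the 5 receptor genes and the 5 ATG8 genes in each of the 10 libraries, on a log axis. Each point is 1 library, colours give the 5 groups and short bars give group means. SQSTM1 sits between 1410 and 1443 CPM in the 4 knockout libraries and under 118 CPM in the other 6, and MAP1LC3A is the gene whose knockout points lie far below the rest.

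A stretch ahead of 1 annotated OPTN start is printed because OPTN stayed farthest from WT in the rescue groups and its windows held a motif match. RefSeq promoter windows (GRCh38.p14) were matched by symbol for 9 of the 10 genes, in 14 windows, and none was held for MAP1LC3A. In the 250 bases before each start, both strands were searched for the antioxidant response element core TGACNNNGC, the AP-1 site TGANTCA, the CLEAR core TCACGTGA of TFEB and its relatives, the FOXO core GTAAACA and an NF-kB consensus of 10 bases. Of 35116 windows of that length in the RefSeq table, 10.9%, 6.57%, 0.854%, 2.98% and 9.96% held these motifs in that order. The stretch chr10:13099959-13100081 on the plus strand lies inside the OPTN gene, ahead of an OPTN start, and overlaps no annotated exon. Capitals mark 11 bases that match the NF-kB consensus once on each strand, the matches overlapping.
OPTN: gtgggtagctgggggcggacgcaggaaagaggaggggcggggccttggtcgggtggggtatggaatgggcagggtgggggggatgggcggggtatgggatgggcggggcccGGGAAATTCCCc
The other matches were an NF-kB match ahead of GABARAPL2, an antioxidant response element core ahead of MAP1LC3B, and an antioxidant response element core and a FOXO core ahead of CALCOCO2. The 3 SQSTM1 windows held no match of these motifs. Only the 250 bases before each start were searched, so sites farther away would not be seen. A match describes the sequence and is neither a bound site nor a cause of a level.

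The ATG8 genes encode proteins that all end in a glycine followed by a short tail. The last 60 coding bases, stop codon included, are printed from GENCODE release 29 on GRCh38 because they hold the glycine at which ATG4 cuts and show how alike MAP1LC3B and MAP1LC3B2 are. The last in-frame glycine codon is in capitals. MAP1LC3B2 is an additional ATG8 locus outside the 10 genes.
MAP1LC3A: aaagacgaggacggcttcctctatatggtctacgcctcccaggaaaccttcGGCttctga
MAP1LC3B: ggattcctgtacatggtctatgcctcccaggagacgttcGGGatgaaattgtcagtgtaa
MAP1LC3B2: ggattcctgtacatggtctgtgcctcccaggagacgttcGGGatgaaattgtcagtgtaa
GABARAP: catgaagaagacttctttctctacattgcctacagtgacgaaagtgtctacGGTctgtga
GABARAPL1: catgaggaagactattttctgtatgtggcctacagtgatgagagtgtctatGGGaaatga
GABARAPL2: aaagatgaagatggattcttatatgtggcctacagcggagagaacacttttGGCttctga
They lie at chr20:34559839-34559898 (plus strand), chr16:87403038-87403097 (plus), chr12:116576261-116576320 (plus), chr17:7240854-7240913 (minus), chr12:10221793-10221852 (plus) and chr16:75577310-75577369 (plus), in the order printed. After the glycine, 1 codon precedes the stop in MAP1LC3A and the GABARAP genes, and 5 codons do in MAP1LC3B and MAP1LC3B2. Over the whole coding sequence, MAP1LC3A and MAP1LC3B shared 71.8% of aligned bases, GABARAP and GABARAPL1 76.8%, GABARAP and GABARAPL2 64.3%, and pairs across the LC3 and GABARAP subfamilies among the 5 genes 50.7% to 56.2%. MAP1LC3B and MAP1LC3B2 were identical at 376 of 378 coding bases, with 1 of the 2 differences in the printed stretch, so reads from these coding bases could be assigned to either locus. MAP1LC3B2 was counted at 0.604 CPM in WT against 0.183 CPM in the knockout, far below MAP1LC3B, and adding its counts to MAP1LC3B changed no call.

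GABARAPL1 (ENSG00000139112, chr12:10212458-10223130, plus strand) had the largest rise of the ATG8 group. It was measured at 56.39 and 58.73 CPM in WT, 142.84 and 152.94 CPM in KO1, and 156.36 and 146.66 CPM in KO2. Knockout libraries were 2.60-fold above WT on average, a change of 1.38 ± 0.05 (edgeR adjusted p = 5.57e-12). KO+STAMBP, at 76.13 and 84.57 CPM, and the KO+CFLAR-labelled libraries, at 71.45 and 70.71 CPM, again fell between WT and knockout. MAP1LC3B (ENSG00000140941, chr16:87383995-87404779, plus strand), the LC3 form most used to mark autophagosomes, stood at 121.34 and 127.28 CPM in WT, 206.50 to 219.88 CPM in the knockout and 129.99 to 136.27 CPM in the rescue libraries. The 3 ranges do not overlap, and the knockout difference was 0.77 ± 0.04 (edgeR adjusted p = 1.45e-10).

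MAP1LC3A (ENSG00000101460, chr20:34546854-34560345, plus strand), the closest relative of MAP1LC3B in the group, moved the opposite way. Its level was 28.75 and 26.80 CPM in WT, 8.42 and 10.17 CPM in KO1, and 8.66 and 9.47 CPM in KO2. KO+STAMBP had 31.77 and 32.77 CPM and the KO+CFLAR-labelled libraries 30.69 and 33.29 CPM. Every knockout library was below every other library, and the fall was -1.60 ± 0.09 (edgeR adjusted p = 2.62e-10). The knockout values rest on 131 to 164 reads per library, the fewest of any of the 10 genes. No other gene of the 10 fell by more than 0.11 in the knockout. The 8 neuronal marker genes fell in the same libraries, as did 6 of the 8 progenitor genes and 39.4% of all tested genes. A link between these falls was not tested.

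The remaining ATG8 genes changed little. GABARAP (ENSG00000170296, chr17:7240014-7242770, minus strand), an ATG8 protein that binds the ULK complex tightly, had 212.64 and 230.51 CPM in WT and 197.68, 205.92, 205.57 and 213.18 CPM in the knockout. The highest knockout library overlapped WT. Its fall of -0.11 ± 0.04 (edgeR adjusted p = 0.0255) was lost with DESeq2 (adjusted p = 0.0761), with median-of-ratios factors (0.0859), without WT replicate 2 (0.368), without KO1 replicate 1 (0.0654), without KO2 replicate 1 (0.0576) and with KO2 alone as the knockout (0.134). GABARAPL2 (ENSG00000034713, chr16:75566351-75577881, plus strand), also known as GATE-16, stood at 70.47 and 74.23 CPM in WT and 70.70 to 76.28 CPM in the knockout. These ranges overlap, and the difference was 0.01 ± 0.05 (edgeR adjusted p = 0.819). Scaling by library size alone moved the median of all tested genes by -0.18, and GABARAPL2 then fell by 0.16 (adjusted p = 0.00433), no further than that median. Of the loci outside the 10, MAP1LC3B2 was called lower in the knockout on 23 counts in all over the WT libraries and 12 over the 4 knockout libraries, and MAP1LC3C was at 1.23 CPM in WT against 1.5 CPM in the knockout.

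Both rescue groups were compared with the knockout, so these comparisons share the 4 knockout libraries with each other and with the first. In KO+STAMBP vs KO, 7 of the 10 genes were called lower and 3 higher, against 37.8% and 40.1% of all tested genes. In the KO+CFLAR-labelled libraries vs KO, 7 were called lower and 2 higher, against 38% and 40% of all tested genes. SQSTM1 was lower than in the knockout by -3.61 ± 0.03 in KO+STAMBP and by -3.80 ± 0.03 in the KO+CFLAR-labelled libraries (edgeR adjusted p = 1.62e-18 and 9.7e-19). MAP1LC3A was higher by 1.82 ± 0.08 and 1.80 ± 0.08 (edgeR adjusted p = 4.23e-11 and 3.72e-11). OPTN was lower by -1.56 and -1.62, TAX1BP1 by -1.2 and -1.28, GABARAPL1 by -0.90 and -1.07, NBR1 by -0.74 and -0.76, CALCOCO2 by -0.74 and -0.85, and MAP1LC3B by -0.64 and -0.68, all of them called. GABARAP, lower in the knockout than in WT, was higher in the rescue groups by 0.33 and 0.26. GABARAPL2 was higher by 0.16 in KO+STAMBP (edgeR adjusted p = 0.00584, and 0.0726 without KO+STAMBP replicate 2) and stood 0.09 ± 0.04 above the knockout in the KO+CFLAR-labelled libraries (adjusted p = 0.0887).

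Against WT, the rescue groups were not at the same level for every gene. In KO+STAMBP vs WT, 6 of the 10 genes were called higher and 1 lower, against 16.4% and 18.5% of all tested genes. In the KO+CFLAR-labelled libraries vs WT, 3 were called higher and 1 lower, against 15.8% and 17.9%. These comparisons share the WT libraries. OPTN was farthest from WT, at 160% of the WT mean in KO+STAMBP and 154% in the KO+CFLAR-labelled libraries, with log2 differences of 0.68 ± 0.06 and 0.62 ± 0.06 (edgeR adjusted p = 6.47e-07 and 1.43e-06). GABARAPL1 was at 140% and 123%, with differences of 0.48 ± 0.06 and 0.30 ± 0.06 (edgeR adjusted p = 2.55e-05 and 0.00139). CALCOCO2 was at 84.3% and 78.1%, with differences of -0.25 ± 0.07 and -0.36 ± 0.07 (edgeR adjusted p = 0.0151 and 0.00131). The first of these CALCOCO2 values, and no call for OPTN or GABARAPL1, was lost without WT replicate 2 and without KO+STAMBP replicate 1, where its adjusted p reached 0.155.

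NBR1 and TAX1BP1 were close to WT in both rescue groups. NBR1 differed from WT by 0.00 ± 0.05 and -0.01 ± 0.05, and TAX1BP1 by 0.02 ± 0.04 and -0.06 ± 0.04, none of them called. SQSTM1 stood 0.21 ± 0.04 above WT in KO+STAMBP (edgeR adjusted p = 0.00047) and 0.02 ± 0.04 above it in the KO+CFLAR-labelled libraries (adjusted p = 0.781). Its difference between the rescue groups was tested directly. SQSTM1 was lower in the KO+CFLAR-labelled libraries by -0.19 ± 0.04 (edgeR adjusted p = 0.0244), the 1 call among the 10 genes where 1.09% of all tested genes were called. That call was lost when only these groups were compared (adjusted p = 0.0636) and without each of the 4 rescue libraries (0.0586 to 0.255).

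The other ATG8 genes lay a little above WT in the rescue groups. GABARAP was higher by 0.22 in KO+STAMBP (edgeR adjusted p = 0.00211) and by 0.15 in the KO+CFLAR-labelled libraries (adjusted p = 0.0197, and 0.224 without WT replicate 1 and 0.174 without KO+CFLAR replicate 2). GABARAPL2 was higher by 0.17 in KO+STAMBP (adjusted p = 0.021, up to 0.184 without WT replicate 1 or without KO+STAMBP replicate 2), as was MAP1LC3B by 0.12 (adjusted p = 0.0471, lost in 7 of 20 alternatives). MAP1LC3A was 0.22 ± 0.09 and 0.21 ± 0.08 above WT with adjusted p = 0.063 and 0.078, so neither was called, but the first was called in 5 of 20 alternatives and the second in 2 of 19. Neuronal marker genes were above WT in the rescue libraries as well, 7 of 8 of them called higher in each rescue group. Of the 8 progenitor genes 1 was called higher and 6 lower in each, and of the 8 epithelial genes 5 higher and 1 lower. Over all tested genes, 16.4% (KO+STAMBP) and 15.8% (KO+CFLAR-labelled libraries) were called higher.

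**Figure D2:**
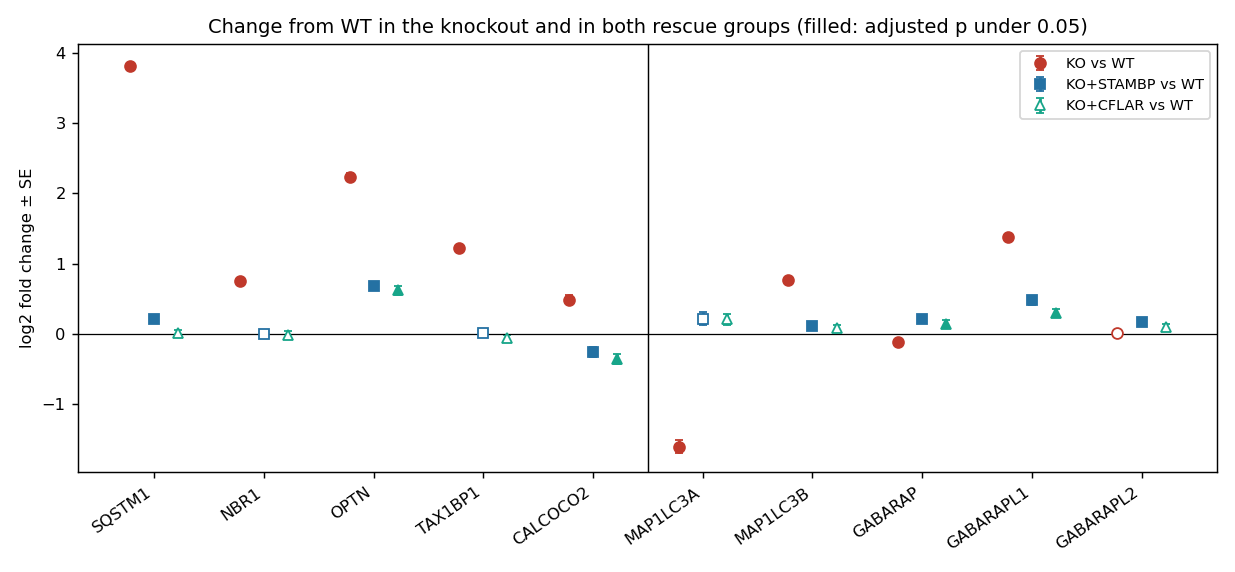
Log2 fold change from WT (± SE, from the edgeR fit) of each receptor and ATG8 gene in the knockout, in KO+STAMBP and in the KO+CFLAR-labelled libraries, with filled symbols for an adjusted p under 0.05. The 3 series share the WT libraries. SQSTM1 goes from 3.82 in the knockout to 0.21 and 0.02 in the rescue groups, while OPTN stays at 0.68 and 0.62.

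Between the knockout lines, 0 of the 10 genes were called in KO1 vs KO2 with edgeR, where 0.157% of all tested genes were called and 1196 of them had an unadjusted p under 0.05. DESeq2 also called 0 of the 10. The largest difference among them was -0.05 ± 0.05, for GABARAP and GABARAPL2. Each rise or fall described above for SQSTM1, NBR1, OPTN, TAX1BP1, CALCOCO2, MAP1LC3A, MAP1LC3B and GABARAPL1 was also called with either line alone as the knockout.

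Divided by the length of the main annotated transcript, levels can be set beside each other between genes. In WT the order of levels per kilobase was GABARAP (136 CPM per kb), GABARAPL2 (72.2), MAP1LC3B (46.2), TAX1BP1 (36.6), SQSTM1 (33.8), GABARAPL1 (29.4), NBR1 (20.6), MAP1LC3A (17.6), CALCOCO2 (7.81) and OPTN (6.08), and no neighbours in that order overlapped over the 2 libraries. In the knockout SQSTM1 led at 478 CPM per kb, followed by GABARAP at 126 and TAX1BP1 at 85.6. MAP1LC3B (78.7), GABARAPL1 (76.5) and GABARAPL2 (72.9) came next and overlapped between neighbours, and NBR1 (34.5), OPTN (28.7), CALCOCO2 (11.0) and MAP1LC3A (5.83) closed the order. Part of this order depends on the length used. Over the union of all annotated exons, MAP1LC3A was 4th in WT (15.8 CPM per kb) and 9th in the knockout (5.21), where it overlapped CALCOCO2 (4.87), and CALCOCO2 (3.45) was below OPTN (4.13) in WT. SQSTM1 and GABARAP led the knockout, and GABARAP led WT, with both lengths.

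The receptor pool was 105 CPM per kb in WT, summed over the 5 genes, and 638 CPM per kb in the knockout. SQSTM1 made up 32.2% ± 0.58 of it in WT (SD, n = 2) and 74.9% ± 0.37 in the knockout (n = 4), then 34.6% in KO+STAMBP and 32.6% in the KO+CFLAR-labelled libraries. TAX1BP1, the largest share in WT at 34.9%, was 13.4% of the knockout pool although its own level rose. OPTN held 5.79% of the pool in WT, 4.5% in the knockout, 8.60% in KO+STAMBP and 8.89% in the KO+CFLAR-labelled libraries, so its share was largest in the rescue groups. Over the union of all annotated exons in place of the main transcript, SQSTM1 (30.2%) and not TAX1BP1 (26.4%) led in WT, and SQSTM1 held 72.6% of the knockout pool.

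The ATG8 pool grew far less, from 301 CPM per kb in WT to 360 in the knockout, 351 in KO+STAMBP and 334 in the KO+CFLAR-labelled libraries. The knockout libraries (347 to 369) overlapped KO+STAMBP (347 to 355). Over the union of all annotated exons the pool was 175, 196, 204 and 195 CPM per kb in the same order, highest in KO+STAMBP. Within the pool per kilobase of main transcript, GABARAPL1 went from 9.77% ± 0.11 in WT to 21.3% ± 0.81 in the knockout, and MAP1LC3B from 15.4% to 21.9%. GABARAP went from 45.0% to 35%, GABARAPL2 from 24.0% to 20.3% and MAP1LC3A from 5.87% to 1.62%. The knockout shares of all 5 genes lay outside the ranges of the other groups. In the rescue groups GABARAPL1 stood at 11.7% and 10.9%, just above WT, and MAP1LC3A at 5.84% and 6.08%. GABARAP led the pool in every group per kilobase, but in counts not divided by length MAP1LC3B (32.6%) was ahead of GABARAP (31.7%) in the knockout.

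**Figure D3:**
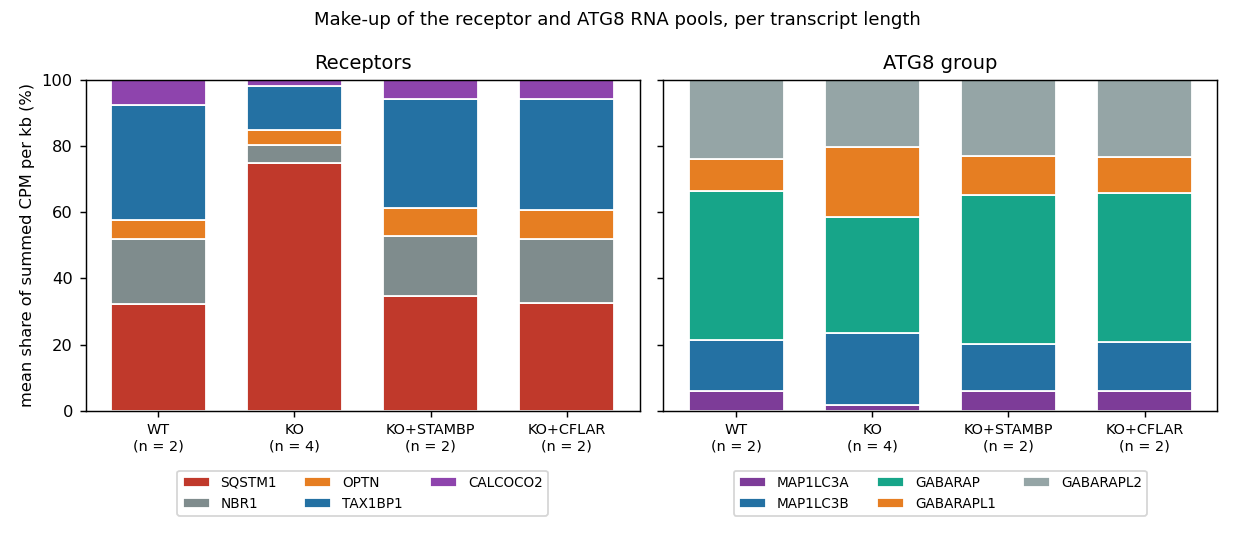
Make-up of the receptor pool and the ATG8 pool in each group, as the mean share (percent) of the summed CPM per kb of main transcript. Each stacked bar is 1 group (n = 2, or 4 for the knockout) and adds up to 100%. SQSTM1 takes 74.9% of the knockout receptor pool, and the ATG8 pool is spread more evenly in the knockout than in WT as GABARAPL1 goes from 9.77% to 21.3%.

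Of 79 further genes in 9 lists of autophagy and linked pathways, 56 were called higher and 11 lower in the knockout than in WT. Their median log2 change was 0.60. The 79 include 7 genes of the KEAP1-NRF2 axis, all of them called higher, and all lists were chosen with earlier results of these data known. The shares over all tested genes, 36.8% higher and 39.4% lower, apply to the count of each list below as well. In the initiation complex, 4 of 5 genes rose: ATG101 by 1.07, RB1CC1 (FIP200) by 0.80, ATG13 by 0.68 and ULK1 by 0.56. The kinase ULK2 fell, by -1.19. In the PI3-kinase complex that marks the forming membrane, 7 of 8 rose and none fell, with NRBF2 at 1.99, BECN1 at 1.14, PIK3R4 at 0.77 and ATG14 at 0.33. Among 10 genes of phagophore expansion 9 rose and 1 fell, and the largest changes were those of the membrane protein VMP1 (39.98 CPM in WT against 253.2 CPM in the knockout, 2.66) and the lipid-binding WIPI1 (2.57), followed by ATG9A (1.04) and WDR45B (0.87).

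The 11 genes that process and conjugate ATG8 proteins had 6 members called higher and 3 lower, where 36.8% and 39.4% of all tested genes were. ATG4A, a protease with a preference for the GABARAP subfamily, rose by 1.76 (5.91 CPM in WT against 20.2 CPM in the knockout), while ATG4B fell by -0.27, ATG4C by -0.68 and ATG4D by -0.20. ATG16L1 (1.2), ATG5 (1.16) and ATG12 (0.35), which form the complex that acts as the ligase for ATG8 lipidation, rose together. Other autophagy receptors, 14 in number and mostly of mitochondria and the endoplasmic reticulum, had a median of 0.14, with 7 higher and 2 lower. The glycogen receptor STBD1 was highest at 3.62, and BCL2L13 (0.75) and the ferritin receptor NCOA4 (0.52) rose as well. The mitochondrial receptor BNIP3L fell by -0.54. In this list no gene but STBD1 changed by as much as TAX1BP1 or OPTN did.

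Fusion of autophagosomes with lysosomes was represented by 14 genes, of which 9 were higher and 2 lower, beside the same 36.8% and 39.4% of all tested genes. The SNARE VAMP8 changed most of all autophagy genes examined, from 0.438 CPM in WT to 82.1 CPM in the knockout (7.57), and RAB7A (1.02), PLEKHM1 (1.79) and VPS18 (1.18) also rose. The WT level of VAMP8 rests on 16 counts in all over the WT libraries and is near the floor. Of 5 kinases and adaptors that act on receptors, 3 were higher and 2 lower. IKBKE rose by 2.69 and TBK1, which phosphorylates OPTN and p62, by 1.14, as did their adaptor TANK by 0.62, while TBKBP1 fell by -0.50.

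Of 5 transcription factors that control autophagy genes, 4 were higher. TFE3 rose by 1.26, FOXO3 by 1.30 and FOXO1 by 1.09, and TFEB rose from 0.614 to 5.85 CPM (3.24 ± 0.29). The WT level of TFEB rests on 23 counts in all over the WT libraries. All 7 genes of the KEAP1-NRF2 axis were higher, with a median of 2.96. In this axis p62 is known to bind KEAP1, which releases NRF2, and NRF2 is known to act on SQSTM1. NFE2L2, which encodes NRF2, rose by 2.11 ± 0.04 (edgeR adjusted p = 3.58e-15), and its known targets TXNRD1 (2.96), NQO1 (3.28) and SRXN1 (3.61) rose further. In the rescue groups these genes were at or below WT: none of the 7 was called higher than WT in either, and 2 (KO+STAMBP) and 3 (KO+CFLAR-labelled libraries) were called lower. Over all 79 genes, 11 were called higher and 10 lower than WT in KO+STAMBP, and 16 higher and 11 lower in the KO+CFLAR-labelled libraries, beside 16.4% and 18.5% and then 15.8% and 17.9% of all tested genes.

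**Figure D4:**
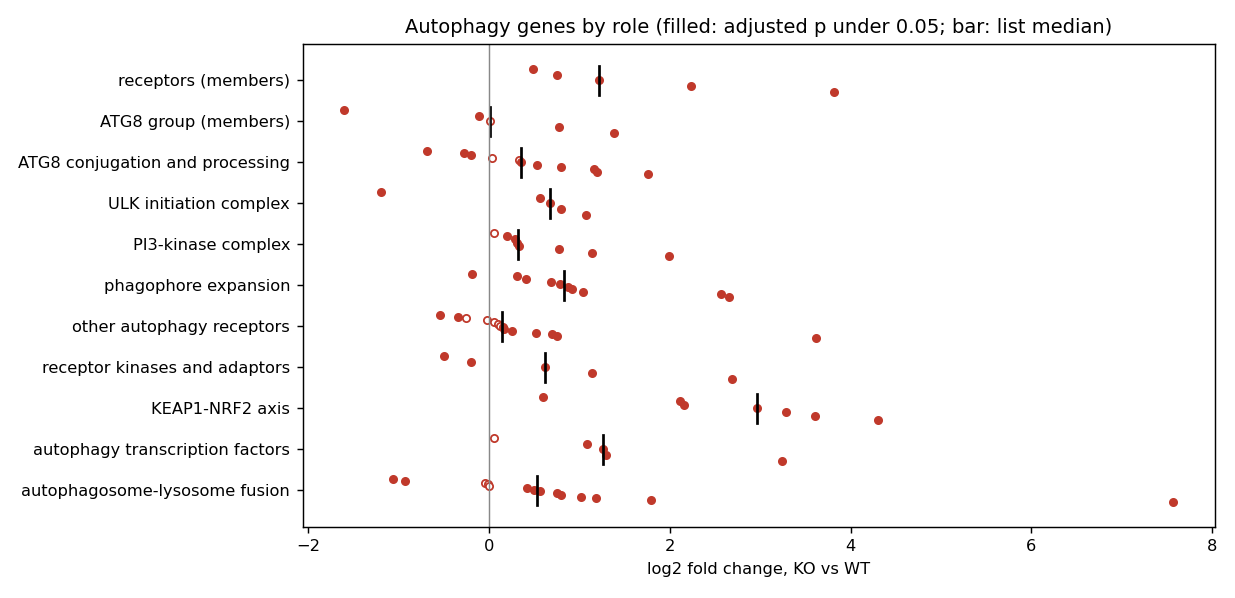
Log2 fold change in KO vs WT of the receptor and ATG8 genes and of 79 further genes of autophagy and linked pathways in 9 lists by role. Each point is 1 gene, filled at an edgeR adjusted p under 0.05, black bars are list medians, and the height of a point within its row carries no value. The KEAP1-NRF2 list has the highest median, 2.96, against 1.22 for the receptors and 0.01 for the ATG8 genes.

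Genes were also ranked by how closely their level followed SQSTM1 or MAP1LC3A over the 10 libraries, by the root-mean-square difference in log2 CPM after centring on WT, among 14273 genes. Nearest to SQSTM1 were APCDD1L (0.066), ANXA4 (0.081) and the noncoding RNA MIR22HG (0.085), with knockout changes of 3.95, 3.85 and 3.81. APCDD1L was at 1.09 CPM in WT against 16.9 CPM in the knockout. It passed the limit of a mean of 2 CPM only through the knockout libraries, and its rank depends on the pseudocount of 0.1. Nearest to MAP1LC3A were ICA1L (0.056), PNMA1 (0.067) and the calmodulin gene CALM3 (0.079), with knockout changes of -1.62, -1.59 and -1.55. None of the 6 is in the autophagy lists, and all of the points share the split between the knockout and the other libraries.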

How the data were processed

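RNA sequencing of 10 libraries was analysed from read counts per gene that the authors deposited without normalization, for 60898 rows. Per the submitters' processing notes, fastp 0.20.0, RSEM 1.2.4 and DESeq2 were used, with builds hg38 and GRCh38; the annotation and strand setting are not given in the sources used here, so reads from overlapping genes on either strand may be mixed. Libraries held 16495116 to 20832700 counts; 3 counts correspond to 0.136 to 0.198 CPM, a limit that covers counting error only. From the counts, edgeR 4.0.16 (R 4.3.3) was fitted with TMM factors, filterByExpr (21063 genes, 99.9% of counts) and 1 mean per group over all libraries, leaving 5 residual degrees of freedom. KO is the equal-weight mean of KO1 and KO2. SE is the change divided by the root of F. A gene was called where its p, adjusted by Benjamini-Hochberg over all tested genes, was under 0.05.

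The 10 genes and all lists were chosen with earlier results of these data known. Text names those 10, at most 4 genes of each list by their adjusted p in KO vs WT, STAMBP and CFLAR, and the 3 genes nearest in pattern to SQSTM1 and to the gene with the lowest change (mean of at least 2 CPM, pseudocount 0.1). ULK1, ATG4B, ATG4C, ATG4D, MAP1LC3B2, MAP1LC3C and the markers PAX6, VIM, FABP7, SOX1, COL1A1, LIN28A, POU5F1 and NANOG were named after their values were seen. On simulated counts of 21063 genes for KO vs WT, 45.2% of 1.25-fold, 85.6% of 2-fold and 99.2% of 4-fold changes were recovered, and 5.89% of calls were false. Only 200 genes were changed in each of the 5 simulated draws, while 76.2% of tested genes were called in the data. These rates are therefore not the error rates of the real comparison, and scaling under so broad a change was not tested. Alternatives were DESeq2 1.42.0, other scalings and filters, a replicate block, single knockout lines and left-out libraries. Sequences came from GENCODE release 29 and RefSeq.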

Additional observations from a re-analysis of the deposited data

Results flagged for a closer look

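SQSTM1 was singled out because its change from WT differed between the rescue groups by a direct test. It stood at 116.42 and 117.61 CPM in KO+STAMBP and at 102.56 and 102.10 CPM in the KO+CFLAR-labelled libraries, a difference of -0.19 ± 0.04 on the log2 scale (edgeR adjusted p = 0.0244). The direction held in all 19 alternatives, from -0.21 to -0.19, with adjusted p from 0.000866 to 0.255. The call was lost in 5 of them.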

How the results depend on the processing

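For the 10 genes, 1395 of 1430 values under the alternatives kept their direction and their side of the threshold, 25 lost their call, 9 gained one and 1 reversed: GABARAPL2 in KO vs WT went from 0.01 to -0.16 with library size alone. For the other named genes 6205 of 6290 did, 79 lost a call, 6 gained one and 0 reversed. In KO+CFLAR vs KO+STAMBP, 229 genes were called, 364 with DESeq2, 780 with no filter on low counts and 27 to 313 with 1 library left out. The 1 call among the 10 genes there became 0 with only the groups compared, and 0 to 1 with 1 library left out. In KO1 vs KO2, 33 genes were called, 251 with no filter and 20 to 58 with 1 library left out, the extremes without KO2 replicate 2 and without KO1 replicate 2. The cause was not tested. Without the KO+CFLAR-labelled libraries, an alternative added after the data were seen, KO vs WT called 15916 genes and 9 of the 10. Dividing by the union of annotated exons was added likewise.

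Differences between the libraries of a group were correlated between groups over all tested genes, at -0.021 to 0.072. These values give no sign that same-numbered libraries deviate together. Counting error draws them toward 0, so they cannot exclude a shared batch or culture. With the replicate number as a block, KO vs WT called 16036 genes in place of 16055, KO+CFLAR vs KO+STAMBP called 301 in place of 229, and the 10 genes kept 9 calls and 1 call.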
